A study of Rattus norvegicus with 24 samples.

Results

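The miR-30 family of the rat lung was described through the 5p arms of its 5 members, rno-miR-30a-5p, rno-miR-30b-5p, rno-miR-30c-5p, rno-miR-30d-5p and rno-miR-30e-5p. They were taken by the miRNA name printed in the scanner files and by no measured value, and are 5 of the 719 rat miRNAs on the array. Of these 719, 283 were bright enough to be tested, and all 5 members were among them. Lung RNA was measured in 24 Fischer-344 rats, with 1 single-colour array (Cy3 dye, 100 ng of total RNA) per rat. Rats of both sexes, 7 to 8 weeks old, breathed filtered clean air (control) or hexanal, an aldehyde released from building materials and foods, during 5 weeks of 5 exposure days each, with 4 h of exposure a day. The 4 groups, which are control and the doses named 600, 1000 and 1500 ppm, each comprised 3 males and 3 females. Titles of the samples write these doses with ppm while the treatment protocol has the same numbers with mg/m3, so ppm is used here only as the name of a dose.

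A miRNA is a short RNA that lowers the output of messenger RNAs carrying a match to its seed, bases 2 to 8 counted from its 5′ end. A miRNA gene is first copied into a hairpin, which is cut into a 5p strand and a 3p strand, and in the miR-30 family the 5p strands share 1 seed. In lung, miR-30 miRNAs are abundant in epithelium and endothelium. Known targets include Snai1, which drives the loss of epithelial character, Dll4, a Notch ligand of sprouting endothelium, and Becn1, an autophagy protein.

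Mature sequences from RefSeq (GRCr8) were found for 3 of the 5 members and are shown because the array probes must tell them apart. The seed is in capitals.
rno-miR-30a-5p: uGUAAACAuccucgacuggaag
rno-miR-30e-5p: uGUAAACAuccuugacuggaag
rno-miR-30c-5p: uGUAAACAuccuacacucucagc
rno-miR-30a-5p (Mir30a, chr9:33233946-33233967, plus strand) and rno-miR-30e-5p (Mir30e, chr5:139637504-139637525, minus strand) were identical at 21 of 22 positions, and the only change was C13U, counted from the 5′ end with the miR-30a-5p base first. rno-miR-30c-5p shared 17 of 22 positions with miR-30a-5p, with the changes C13A, G14C, G18C, G19U and A20C. How far a probe of one of these miRNAs reads another was not tested. rno-miR-30c-5p is made from a pair of genes, Mir30c1 (chr5:139634505-139634527, minus strand) and Mir30c2 (chr9:33253695-33253717, plus strand), whose 5p arms have the same letters and cannot be told apart by the array. The seed GUAAACA was held by 4 of the 693 mature miRNAs in the sequence table, these 3 and rno-miR-384-5p, which was not well above background on any of the 24 arrays. The 3p strands of the same hairpins carry other seeds, and those with a sequence in the table show how the passenger strands differ from the 5p arms.
rno-miR-30a-3p: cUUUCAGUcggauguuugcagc
rno-miR-30c-1-3p: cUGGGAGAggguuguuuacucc
rno-miR-30c-2-3p: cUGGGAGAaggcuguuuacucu
The 6 genes lie in 3 pairs. Mir30a and Mir30c2 are neighbours on chromosome 9, Mir30b and Mir30d on chromosome 7 within the uncharacterized gene LOC102551574, and Mir30c1 and Mir30e on chromosome 5 within Nfyc, which encodes a subunit of the transcription factor NF-Y.

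The arrays lay on 3 slides of 8, and slide went with sex and dose. Slide 1 had males alone, namely all 6 of the control and 600 ppm groups and 2 given 1000 ppm. Slide 3 had females alone, namely all 6 of the 1000 and 1500 ppm groups and 2 given 600 ppm. Slide 2 was mixed, with 4 females (the 3 controls and 1 of 600 ppm) and 4 males (the 3 of 1500 ppm and 1 of 1000 ppm). The control males and the males at 1500 ppm therefore lay on different slides. On an array, 27.9% to 38.5% of the spots were well above background. The tissue label was checked with marker miRNAs. All 9 epithelial markers (such as the miR-200 family) and 2 of 3 endothelial markers (both arms of miR-126a) were above background on at least 6 arrays, as were blood cell and smooth muscle markers, while the muscle miRNAs rno-miR-206-3p and rno-miR-208a-3p were above background on no array. The other 4 of the 6 heart and muscle miRNAs listed were above background, on 18 to 24 arrays each. They varied widely between rats, with a summed level of 145 to 1373 scaled intensity units. In whole lung, fewer cells of a type and less miRNA per cell cannot be told apart.

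All 5 members were bright. Each was read by 2 probes with 10 spots apiece, every spot was well above background on all 24 arrays, and none was saturated. The level used below is log2 of the processed intensity after each array was scaled to a common 75th percentile, as the mean of both probes. Levels are compared between rats for 1 miRNA at a time and not between miRNAs, since probes differ in brightness. The SD between rats of the same dose and sex was 0.07 for miR-30a-5p, 0.08 for miR-30e-5p, 0.10 for miR-30c-5p, 0.11 for miR-30d-5p and 0.14 for miR-30b-5p, against a median of 0.13 over the 283 miRNAs tested. From the lowest to the highest rat, the members spanned 0.34 (miR-30e-5p) to 0.72 (miR-30b-5p) on the log2 scale.

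The comparison of each dose with clean air asked whether hexanal shifted the family in lung. With limma and Benjamini-Hochberg adjustment over all 283 miRNAs, none of the 5 members passed the threshold of 0.05 at 600, 1000 or 1500 ppm, and none of the 283 did (0% called at each dose). At an unadjusted p below 0.05, 1 of 5 members stood out at 600 ppm (1.77% of all tested), 0 at 1000 ppm (6.01%) and 0 at 1500 ppm (9.19%). The members are taken below by gene pair.

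miR-30a-5p, best known for lowering Becn1 and Snai1, had a lowest, median and highest log2 level of 12.35, 12.45 and 12.51 in control and 12.42, 12.51 and 12.64 at 600 ppm. The values were 12.33, 12.41 and 12.56 at 1000 ppm and 12.39, 12.53 and 12.73 at 1500 ppm. The 4 ranges overlapped, and the means ran from 1500 ppm down through 600 ppm and control to 1000 ppm, with the widest step between neighbours, 12.52 ± 0.09 at 600 ppm to 12.44 ± 0.06 in control (SD, n = 6), smaller than the SD at 600 ppm and larger than that in control. Its difference from control was 0.08 ± 0.06 at 600 ppm, -0.01 ± 0.06 at 1000 ppm and 0.10 ± 0.06 at 1500 ppm (log2, SE, 6 rats against 6), with limma adjusted p of 0.996, 0.991 and 0.50. The 95% interval at 1500 ppm ran from -1.77% to 16.7%. The partner of this gene pair, miR-30c-5p, ranged over 11.89 to 12.17 in control, 11.95 to 12.18 at 600 ppm, 11.86 to 12.13 at 1000 ppm and 11.76 to 12.21 at 1500 ppm. The mean level of miR-30c-5p went from 12.08 ± 0.10 at 600 ppm through 12.03 ± 0.13 in control and 12.00 ± 0.11 at 1000 ppm to 11.96 ± 0.16 at 1500 ppm (SD, n = 6), steps that lie inside those SDs. Its differences from control were 0.05 ± 0.08, -0.03 ± 0.08 and -0.08 ± 0.08 in order of dose (limma adjusted p 0.996, 0.991 and 0.710).

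miR-30b-5p and miR-30d-5p come from 1 locus. They were the members with the largest differences from control at 600 and 1000 ppm, and at 1500 ppm miR-30b-5p had the largest and miR-30d-5p the smallest. miR-30b-5p, one of the miR-30 strands that target Dll4, had a lowest, median and highest level of 11.77, 11.96 and 12.18 in control and 11.81, 12.07 and 12.39 at 600 ppm. It had 11.67, 11.92 and 12.15 at 1000 ppm and 11.68, 11.71 and 12.00 at 1500 ppm. At 1500 ppm 5 of 6 rats lay below the control mean, but the ranges overlapped, with the 3 control females at 11.77 to 11.82. The difference was 0.13 ± 0.10 at 600 ppm, -0.05 ± 0.10 at 1000 ppm and -0.21 ± 0.10 at 1500 ppm (SE), and the last had an unadjusted p of 0.053, a limma adjusted p of 0.498 and a 95% interval of -25.2% to 0.172%. With slide as a block the difference at 1500 ppm was -0.07 (limma adjusted p 0.831), and with the brighter probe alone it was -0.01. A linear trend gave -0.15 ± 0.07 per 1000 ppm for miR-30b-5p (unadjusted p 0.038, limma adjusted p 0.451). A slide block made it -0.06 ± 0.05 (unadjusted p 0.253).

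miR-30d-5p had a lowest, median and highest level of 10.58, 10.79 and 10.85 in control and 10.78, 10.91 and 11.14 at 600 ppm. The values were 10.63, 10.69 and 10.79 at 1000 ppm and 10.55, 10.74 and 10.99 at 1500 ppm. The 600 ppm rats were the highest group, with 6 of 6 above the control mean, although the lowest of them lay inside the control range. The difference from control at 600 ppm was 0.16 ± 0.07 (SE), a rise of 11.9% with a 95% interval of 1.40% to 23.5%, an unadjusted p of 0.027 and a limma adjusted p of 0.996. It was of similar size for both probes, 0.17 and 0.15, in males (0.20 ± 0.09) and in females (0.12 ± 0.09), and 0.20 when slide was a block (limma adjusted p 0.285). It was 0.09 after quantile normalization and 0.09 with the normexp background correction. Among the males at 600 ppm, male 8 was at 11.14. Males 6 and 7, at 10.83 and 10.78, lay inside the control male range of 10.58 to 10.85. Without male 8 the 600 ppm difference, sexes pooled, was 0.12. At 1000 and 1500 ppm the differences were -0.07 ± 0.07 and -0.01 ± 0.07. The moderated F test of any dose gave miR-30b-5p an F of 3.86 and miR-30d-5p an F of 4.11, with limma adjusted p of 0.650 and 0.644.

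miR-30e-5p, which shares the Nfyc locus with Mir30c1, ranged over 10.06 to 10.37 in control, 10.17 to 10.36 at 600 ppm, 10.11 to 10.40 at 1000 ppm and 10.07 to 10.26 at 1500 ppm. The differences from control were 0.05 ± 0.06, 0.01 ± 0.06 and -0.06 ± 0.06 in order of dose (limma adjusted p 0.996, 0.991 and 0.710), and every range overlapped the others. Across the family, 5 of 5 members had a mean above control at 600 ppm, with a median difference of 0.08 against 0.02 for all 283 miRNAs, but miR-30e-5p was at -0.01 after quantile normalization, miR-30a-5p and miR-30c-5p fell just below 0 with the normexp background correction, and miR-30c-5p and miR-30e-5p were below 0 in the deposited series table. At 1500 ppm 1 of 5 was above control, with a median of -0.06 against 0.00, and with slide as a block 2 of 5 were, with a median of -0.01 against -0.02.

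**Figure D1:**
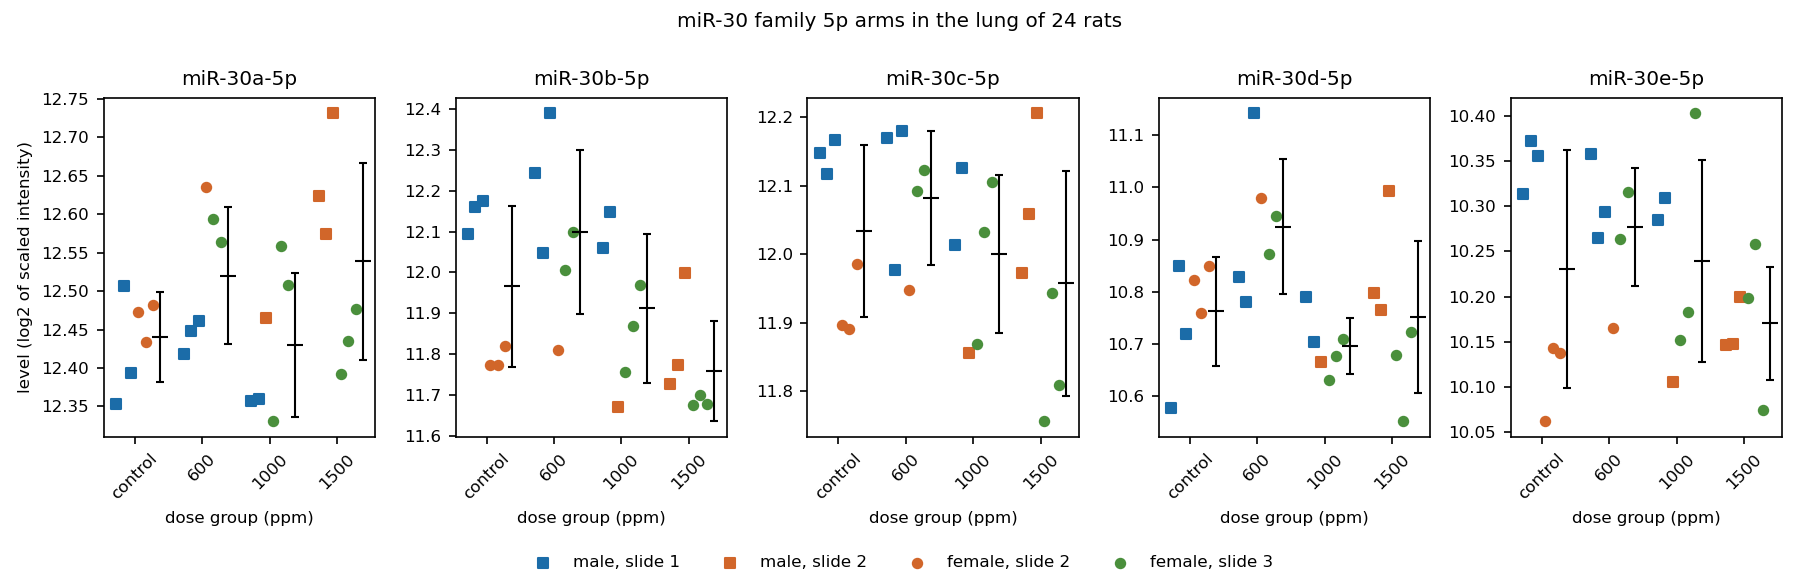
Log2 level of each miR-30 5p arm (y axis, log2 of scaled intensity, a separate range per panel) in each rat by dose group in ppm (x axis). Squares are males, circles are females, colours are the slides, and black bars are the group mean ± SD (n = 6). The groups overlap in every panel, and the slide 1 males (blue) sit above the slide 2 arrays (orange) for miR-30b-5p and miR-30e-5p.

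**Figure D2:**
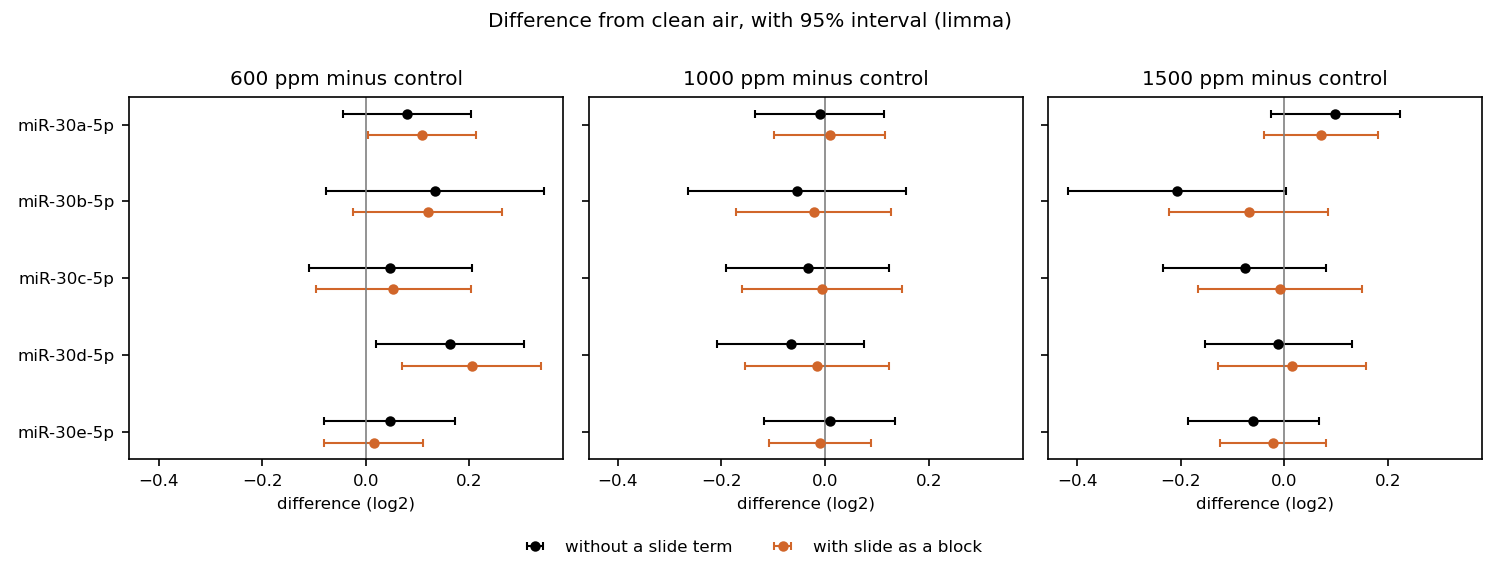
Difference of each dose from clean air for each member (x axis, log2), with its 95% interval from limma, without a slide term (black) and with slide as a block (orange). At 600 ppm all 5 points lie above 0 in both fits and only the intervals of miR-30d-5p (both fits) and miR-30a-5p (slide block) lie clear of it. None of these differences passed the threshold after adjustment.

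Males and females were compared with dose group as a factor. miR-30b-5p and miR-30c-5p were higher in males and passed the threshold, 2 of 5 members, where 43.8% of all 283 miRNAs passed in either direction and 16.3% passed as higher. miR-30b-5p had a lowest, median and highest level of 11.67, 12.08 and 12.39 in 12 males and 11.68, 11.79 and 12.10 in 12 females, a difference of 0.21 ± 0.06 (SE, limma adjusted p 0.006). For miR-30c-5p these levels were 11.86, 12.12 and 12.21 in males and 11.76, 11.95 and 12.12 in females, a difference of 0.13 ± 0.05 (limma adjusted p 0.033). In males 9 of 12 (miR-30b-5p) and 11 of 12 (miR-30c-5p) lay above the female mean, and the ranges of the sexes overlapped for both. The other members differed by -0.02 (miR-30a-5p), 0.03 (miR-30d-5p) and 0.07 (miR-30e-5p). Of the 12 males, 8 lay on slide 1, which held no female. Within slide 2, where 4 males and 4 females lay together, the males were at 1000 and 1500 ppm and the females in control or at 600 ppm, so sex and dose cannot be told apart there. In that comparison, in which 7.07% of all miRNAs passed, the differences were -0.00 ± 0.07 for miR-30b-5p and 0.09 ± 0.07 for miR-30c-5p (limma adjusted p 0.991 and 0.547). A slide block made them 0.18 and 0.24 (limma adjusted p 0.400 and 0.285, 3.53% called). The call of miR-30c-5p was also lost when any 1 of 9 rats was left out (control males 1 and 3, control females 21 and 22, females 26 at 600 ppm, 31 at 1000 ppm and 36 at 1500 ppm, and males 12 at 1000 ppm and 18 at 1500 ppm), with differences of 0.11 to 0.12.

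Dose effects were then taken apart by sex. In males, miR-30a-5p was higher and miR-30b-5p lower at 1500 ppm than in control, and both passed the threshold, 2 of 5 members, where 36% of all 283 miRNAs passed (20.1% higher and 15.9% lower). miR-30a-5p was 12.35, 12.39 and 12.51 in the 3 control males and 12.57, 12.62 and 12.73 in the 3 males at 1500 ppm. The groups did not overlap, and the difference was 0.23 ± 0.06 (SE, limma adjusted p 0.007). miR-30b-5p was 12.09, 12.16 and 12.18 in control males and 11.73, 11.77 and 12.00 at 1500 ppm. These groups did not overlap either, with a difference of -0.31 ± 0.11 (limma adjusted p 0.033). miR-30e-5p was 10.31, 10.36 and 10.37 in control males and 10.15, 10.15 and 10.20 at 1500 ppm, lower in every exposed male, with a difference of -0.18 ± 0.07 that missed the threshold (limma adjusted p 0.0503). miR-30c-5p (-0.06 ± 0.08) and miR-30d-5p (0.14 ± 0.09) overlapped between the groups. Groups that do not overlap, 3 against 3, were found for 3 of 5 members and for 56.5% of all miRNAs.

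In females at 1500 ppm the differences from control were -0.16 to 0.06 for the 5 members, and 0 of 5 passed (limma adjusted p 0.468 to 0.889, 0% of all called). With slide as a block they were -0.35 to 0.03, with miR-30b-5p the lowest (unadjusted p 0.031, limma adjusted p 0.505), and miR-30a-5p (0.03) and miR-30e-5p (-0.06) changed sign. The F test of any dose passed for miR-30a-5p (F = 6.82, limma adjusted p 0.012) and miR-30b-5p (F = 5.19, limma adjusted p 0.030) in males, where 35.3% of all miRNAs passed, and for no member in females. The interaction of dose and sex passed for miR-30a-5p alone of the 5 members (F = 6.43, limma adjusted p 0.021, 25.1% of all called), and its 1500 ppm difference was larger in males than in females by 0.25 ± 0.09 (limma adjusted p 0.031, 35.3% called). None of these calls remained when slide was a block. The 1500 ppm differences in males were then 0.12 for miR-30a-5p, 0.12 for miR-30b-5p, 0.15 for miR-30c-5p, 0.22 for miR-30d-5p and 0.01 for miR-30e-5p (limma adjusted p 1.00 for each), so miR-30b-5p changed sign. In this fit the slide term in males came only from the 1000 ppm group, male 13 on slide 2 against males 11 and 12 on slide 1. In females it came only from the 600 ppm group, female 26 on slide 2 against females 27 and 28 on slide 3. Each value with the block therefore hangs on male 13 or female 26. The SE of the members' 1500 ppm differences was 0.06 to 0.11 without the block and 0.11 to 0.16 with it. Quantile normalization between arrays took the 1500 ppm difference of miR-30a-5p in males to 0.01, and in the deposited series table, which is not scaled between arrays and moved the median of all miRNAs in this comparison by -0.70, it was -0.42. The miR-30a-5p interaction also lost its call without male 18 (F = 4.42, limma adjusted p 0.077) or female 36 (F = 4.71, limma adjusted p 0.061), both at 1500 ppm. In males the F test of miR-30a-5p was lost without male 18 (F = 3.52), and that of miR-30b-5p without control male 3, 600 ppm male 6 or 8, or 1500 ppm male 16 or 17 (F = 3.51 to 4.59). The 1500 ppm call of miR-30b-5p in males was lost without control male 2 or 3 or 1500 ppm male 16 or 17 (-0.30 to -0.26).

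Since slide and dose go together in males, the slides were compared directly. Between the 4 males on slide 2 and the 8 males on slide 1, 3 of 5 members differed, where 51.2% of all miRNAs did. miR-30a-5p was higher on slide 2 by 0.19 ± 0.05 (SE, limma adjusted p 0.007), and miR-30b-5p and miR-30e-5p were lower, by -0.37 ± 0.07 and -0.17 ± 0.03 (limma adjusted p 0.001 for both). These are the members, and the directions, of the 1500 ppm differences in males. All males at 1500 ppm are among the 4 on slide 2 and all control males among the 8 on slide 1, so this likeness was largely built in. The effects of slide and dose cannot be told apart in the 1500 ppm differences in males. miR-30c-5p (-0.09 ± 0.06) and miR-30d-5p (0.01 ± 0.09) did not pass. Between slides 3 and 2 in females, 0 of 5 members passed (limma adjusted p 0.275 to 0.830, 4.95% of all called). Slide accounted for 65.5% of the variance of miR-30b-5p over the 24 arrays, 58.0% for miR-30e-5p, 33.1% for miR-30a-5p, 28.0% for miR-30c-5p and 10.8% for miR-30d-5p, against a median of 37.6% for all tested. For dose group the shares were 36.1%, 15.5%, 23.0%, 13.2% and 40.3% in the same order of members, against a median of 13.8%. miR-30d-5p had the lowest share for slide and the highest for dose group of the 5 members, and the shares overlap because slide and dose group do.

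The 2 probes of a member did not move alike between slides. For miR-30b-5p the brighter probe exceeded the dimmer by 1.08 ± 0.06 on slide 1, 2.08 ± 0.04 on slide 2 and 1.92 ± 0.05 on slide 3 (log2, SD, n = 8). For miR-30a-5p the gap was 0.43 ± 0.02, 0.98 ± 0.05 and 0.86 ± 0.05, and for miR-30e-5p it was 1.01 ± 0.02, 1.49 ± 0.02 and 1.39 ± 0.02. The gap was nearly constant among the arrays of 1 slide and wider on slides 2 and 3. miR-30c-5p (1.41, 1.62 and 1.59) and miR-30d-5p (0.28, 0.39 and 0.38) had the smallest shifts of gap. Slides 1 and 2 did not overlap in this gap for 5 of 5 members, and for 148 of the 204 miRNAs with 2 or more kept probes that were above background on all arrays (72.5%). The median size of the shift was 0.48 for the members and 0.31 for the 204.

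**Figure D3:**
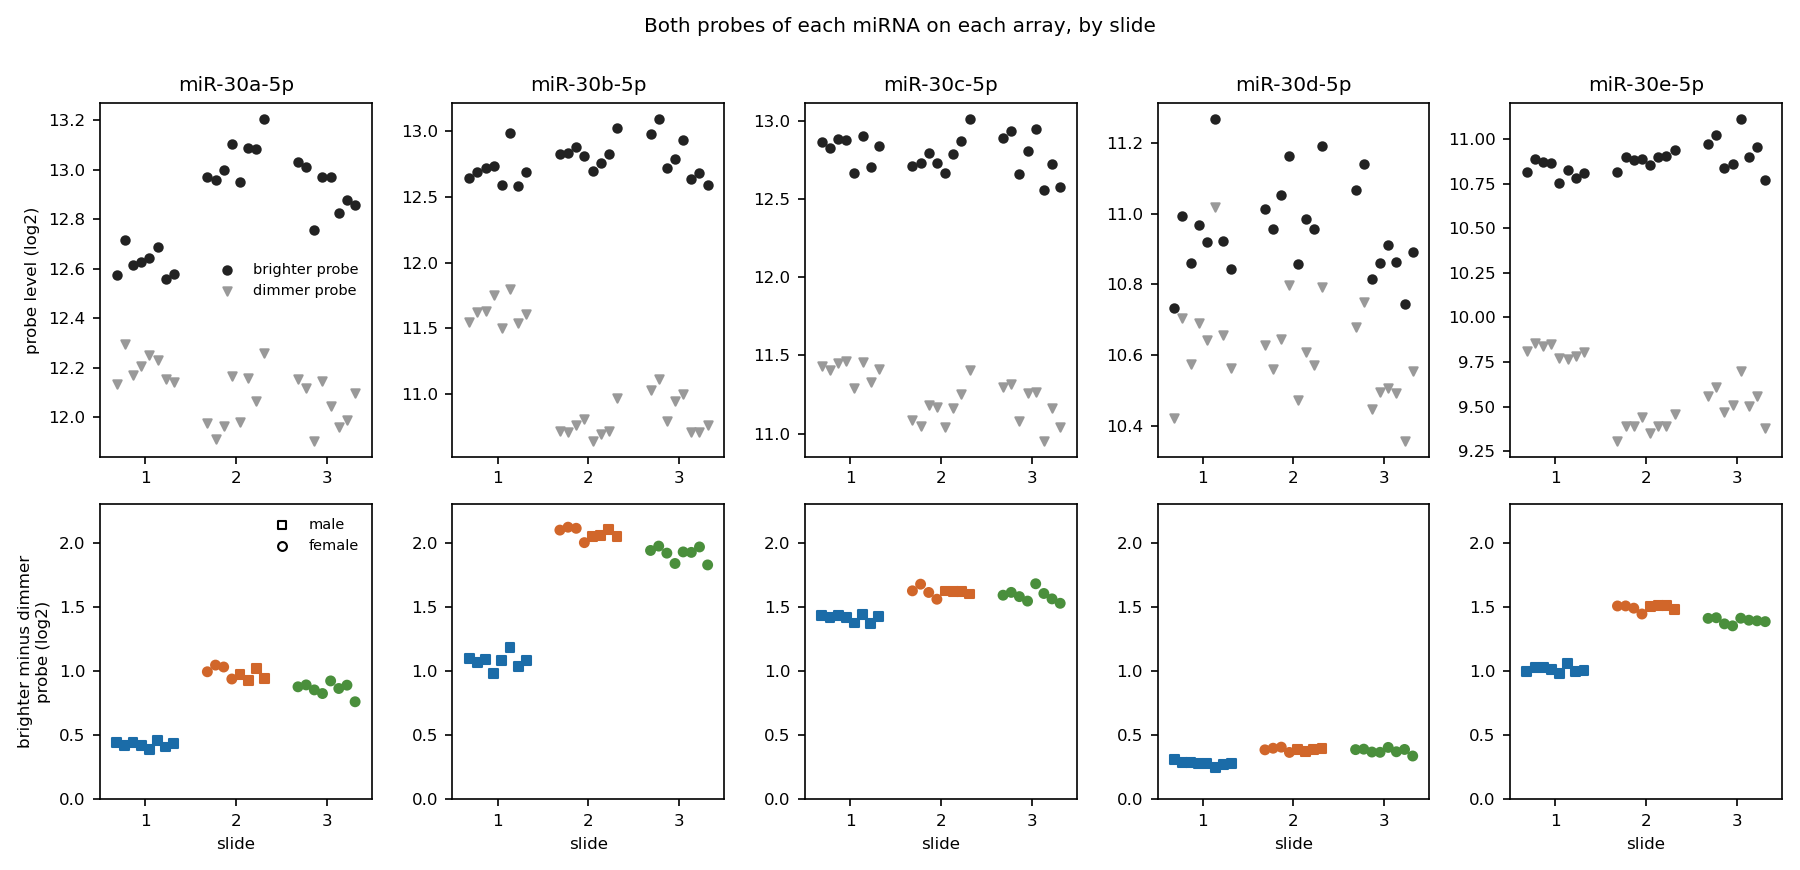
Upper row, log2 level of the brighter (black circles) and dimmer (grey triangles) probe of each member on each array, by slide (x axis). Lower row, their difference (log2) with males as squares and females as circles. The difference is tight within a slide and steps up from slide 1 to slide 2 in all 5 panels, most for miR-30b-5p (1.08 to 2.08).

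The calls in males rested on 1 probe each. In a limma fit of the 555 kept probes, the 1500 ppm difference of miR-30a-5p in males was 0.49 ± 0.08 by the brighter probe (limma adjusted p 3.6e-04) and -0.04 ± 0.07 by the dimmer (limma adjusted p 0.707). That of miR-30b-5p was -0.81 ± 0.17 by the dimmer probe (limma adjusted p 0.001) and 0.18 ± 0.09 by the brighter (limma adjusted p 0.122), which have opposite signs. That of miR-30e-5p was -0.42 ± 0.09 by the dimmer (limma adjusted p 0.001) and 0.06 ± 0.07 by the brighter (limma adjusted p 0.547). For miR-30c-5p (-0.16 and 0.03) and miR-30d-5p (0.09 and 0.18) neither probe passed. The sex difference of miR-30b-5p was likewise 0.50 ± 0.10 by the dimmer probe and -0.07 ± 0.06 by the brighter (limma adjusted p 0.001 and 0.339), and that of miR-30c-5p was 0.19 ± 0.05 and 0.07 ± 0.05 (limma adjusted p 0.005 and 0.256). For miR-30a-5p the sex difference was 0.13 ± 0.04 by the dimmer probe and -0.17 ± 0.07 by the brighter (limma adjusted p 0.008 and 0.054). For miR-30e-5p it was 0.19 ± 0.06 and -0.06 ± 0.04 (limma adjusted p 0.018 and 0.202). The 1500 ppm difference of miR-30a-5p in males minus that in females was 0.61 ± 0.12 by the brighter probe and -0.10 ± 0.10 by the dimmer (limma adjusted p 0.002 and 0.426). Which probe follows the miRNA was not tested.

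**Figure D4:**
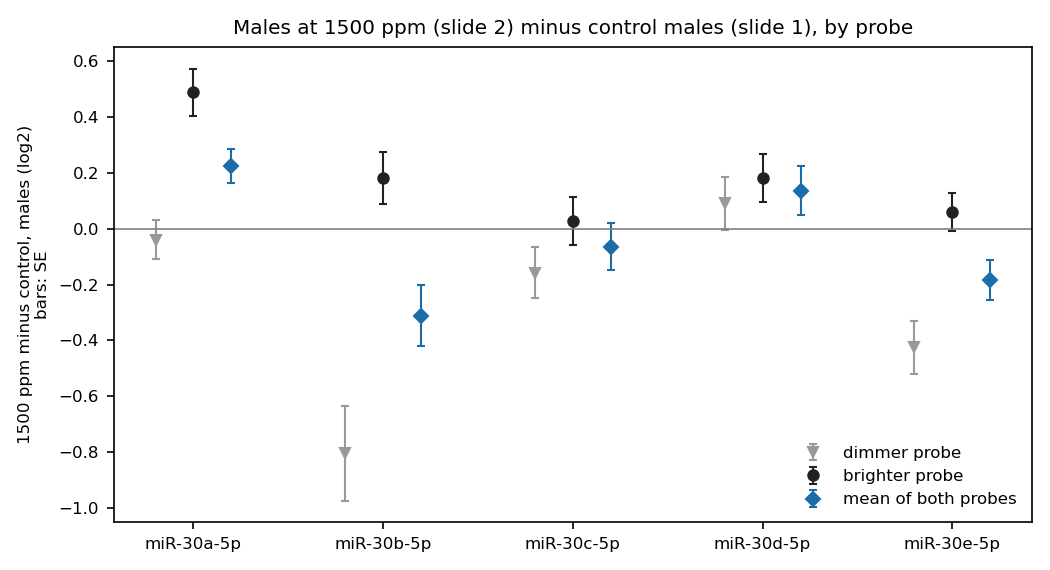
Males at 1500 ppm minus control males (y axis, log2, bars are SE, 3 rats against 3) by the dimmer probe (grey), the brighter probe (black) and their mean (blue) for each member. The probes part for miR-30a-5p (-0.04 and 0.49), miR-30b-5p (-0.81 and 0.18) and miR-30e-5p (-0.42 and 0.06) and lie close for miR-30d-5p (0.09 and 0.18).

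Comparisons within a slide leave the slide difference out. Among the males of slide 1, 600 ppm minus control (3 against 3) was 0.20 ± 0.12 for miR-30d-5p and -0.04 to 0.08 for the other members, with limma adjusted p of 0.930 to 0.991 and 0% of all miRNAs called. Among the females of slide 3, the 2 rats at 600 ppm had miR-30b-5p levels of 12.01 and 12.10 and the 3 rats at 1500 ppm had 11.68, 11.68 and 11.70. All 5 members were lower at 1500 ppm than at 600 ppm there, and their groups did not overlap, which held for 33.6% of all 283 miRNAs. The differences were -0.37 ± 0.05 for miR-30b-5p, -0.27 ± 0.07 for miR-30c-5p, -0.26 ± 0.07 for miR-30d-5p, -0.14 ± 0.05 for miR-30a-5p and -0.11 ± 0.07 for miR-30e-5p (SE). Their median was -0.26 against -0.07 for all tested. None passed after adjustment (limma adjusted p 0.220 to 0.589, 0% of all called). From 1000 to 1500 ppm in the same females the largest difference was that of miR-30b-5p, -0.18 ± 0.07 (limma adjusted p 0.637).

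The members were also followed together from rat to rat. Over the 24 arrays 8 of the 10 pairs had a Pearson r above 0, and 5 passed after adjustment over the 10. These pairs had a median r of 0.43, against 0.06 for all pairs of tested miRNAs. The closest were miR-30b-5p with miR-30c-5p (r = 0.85, rho = 0.87), miR-30b-5p with miR-30e-5p (r = 0.79, rho = 0.79) and miR-30c-5p with miR-30e-5p (r = 0.72, rho = 0.73), with permutation p of 1e-05, 2e-05 and 1.6e-04 and adjusted p of 1e-04, 1e-04 and 5.3e-04. The first of these p-values is the smallest that the permutations can give. Without the 2 arrays farthest from the median of the first member, these 3 were 0.83, 0.81 and 0.73. The permutations over 24 arrays took no account of slide. Within slides 1, 2 and 3, r was 0.74, 0.84 and 0.92 for the first pair, 0.27, 0.65 and 0.69 for the second and 0.64, 0.74 and 0.75 for the third. The locus partners miR-30b-5p and miR-30d-5p had r = 0.46 (rho = 0.42, permutation p 0.024, adjusted 0.049 for r and 0.082 for rho), which dropped to 0.24 without the 2 farthest arrays. Within slides 1, 2 and 3 their r was 0.77, 0.83 and 0.80, and 0.42, 0.60 and 0.32 without the 2 farthest arrays of each slide. miR-30a-5p with miR-30d-5p had r = 0.54 (rho = 0.58, permutation p 0.006, adjusted 0.015) and 0.38 without the 2 farthest. miR-30a-5p had r = -0.13 with miR-30b-5p and -0.21 with miR-30e-5p.

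Within slides 2 and 3 the members ran closer together than over all arrays, and on slide 1 they did not. Pearson r was 0.59 to 0.84 on slide 2 and 0.31 to 0.92 on slide 3, with 10 of 10 pairs above 0 on each, and -0.09 to 0.77 on slide 1, with 9 of 10 above 0. The median r over the 10 pairs was 0.33, 0.73 and 0.72 on slides 1, 2 and 3, where the median over all pairs of tested miRNAs was 0.11, 0.05 and 0.13. With 8 arrays per slide, 0 of the 30 within-slide relations passed the exact permutation test of r after adjustment (lowest adjusted p 0.091), and 1 passed by rho, miR-30b-5p with miR-30c-5p on slide 3 (rho = 0.95, exact permutation p 0.001, adjusted 0.034). Without the 2 farthest arrays r ran from -0.28 to 0.79 on slide 1, -0.12 to 0.69 on slide 2 and -0.09 to 0.91 on slide 3. The levels on 1 array share its scaling factor, and the part of that in these values was not tested. With the brighter probe of each member alone, an alternative chosen after seeing the data, 10 of 10 pairs were above 0 over the 24 arrays and 8 passed. miR-30a-5p then had r = 0.61 with miR-30b-5p and 0.55 with miR-30e-5p (permutation p 0.002 and 0.004, adjusted 0.005 and 0.008), against -0.13 and -0.21 with both probes. The locus partners miR-30b-5p and miR-30d-5p then had r = 0.73 (permutation p 4e-05, adjusted 4e-04), against 0.46 with both probes.

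**Figure D5:**
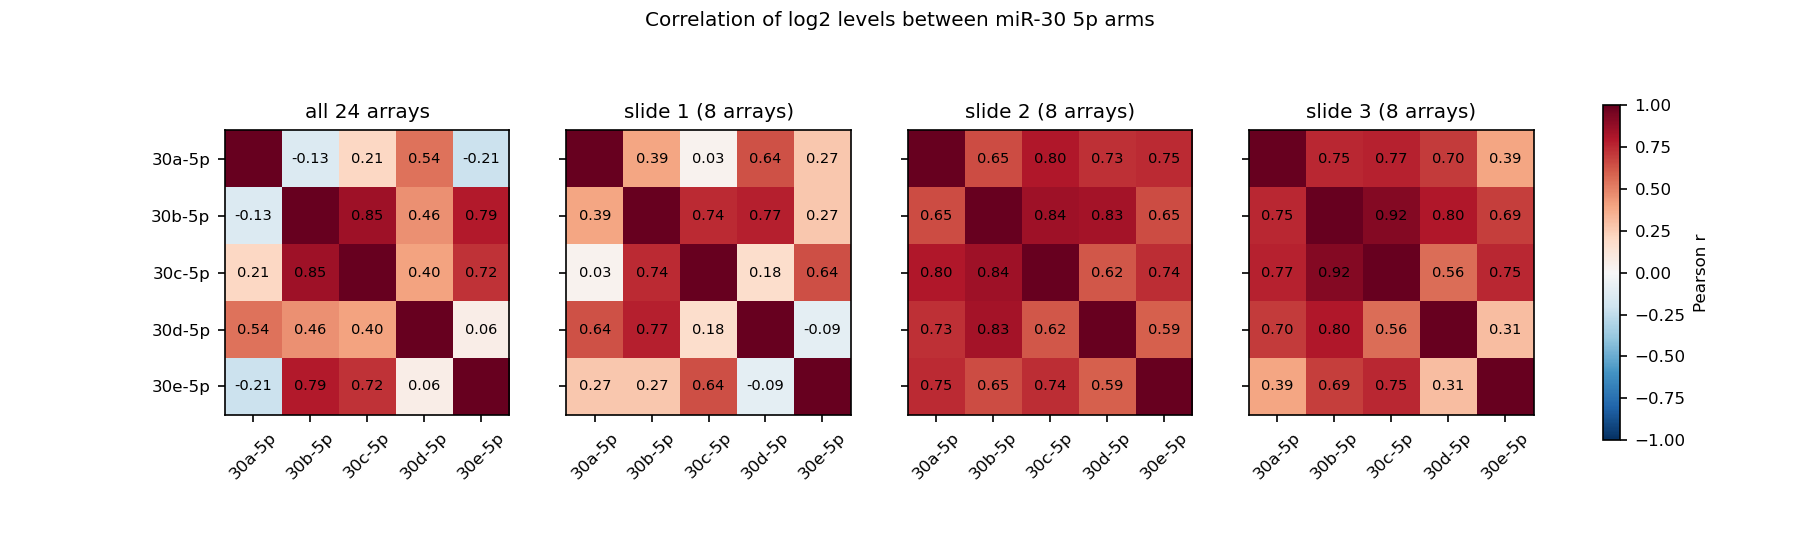
Pearson r between the log2 levels of the members over all 24 arrays and over the 8 arrays of each slide (colour scale -1 to 1, values printed in the cells). Red fills the panels of slides 2 and 3, while miR-30a-5p stands apart from miR-30b-5p (-0.13) and miR-30e-5p (-0.21) over all arrays.

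Among miRNAs other than the members, the 3 most like each member over the 24 arrays were listed. These included a miR-30 3p strand for each member other than miR-30e-5p. For miR-30a-5p they were its own 3p arm rno-miR-30a-3p (r = 0.90), rno-miR-130a-3p (0.84) and rno-miR-24-3p (0.77). For miR-30b-5p they were rno-miR-30e-3p (0.91), rno-miR-22-5p (0.88) and rno-miR-152-3p (0.87). For miR-30c-5p they were rno-miR-23a-3p (0.79), rno-miR-30e-3p (0.73) and rno-miR-29c-3p (0.72). The list for miR-30d-5p was rno-miR-125a-5p (0.74), rno-miR-30d-3p (0.68) and rno-miR-151-3p (0.66), and that for miR-30e-5p was rno-miR-101a-3p (0.85), rno-miR-29c-3p (0.84) and rno-miR-374-5p (0.84). Within slides 1, 2 and 3 the r of miR-30b-5p with rno-miR-30e-3p was 0.38, 0.76 and 0.92, and that of miR-30e-5p with rno-miR-374-5p was 0.61, -0.16 and 0.76. The likeness of miR-30a-5p to its 3p arm was 0.70, 0.89 and 0.98 within slides 1, 2 and 3.

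The 3p strands of the 6 hairpins were all tested, and 0 of 6 passed at any dose. rno-miR-30c-1-3p was dim and was above background on only 18 of the arrays. Its level was 11.8 to 12.5 scaled intensity units in control males and 13.1 to 17.8 in males at 1500 ppm, against a floor of 11.3. Its differences below therefore rest on values near the floor. rno-miR-30d-3p was above background on all 24 arrays but was also dim, at 20.6 to 25.0 units in control and 18.1 to 22.0 at 1500 ppm. The difference of rno-miR-30d-3p and the ratio of miR-30d below rest on these dim values. The lowest adjusted p at 1500 ppm was that of rno-miR-30d-3p, with a difference from control of -0.16 ± 0.07 (SE, unadjusted p 0.026, limma adjusted p 0.498). In males at 1500 ppm 4 of 6 passed (36% of all called), with rno-miR-30a-3p (0.28), rno-miR-30b-3p (0.35) and rno-miR-30c-1-3p (0.34) higher and rno-miR-30e-3p (-0.43) lower, and none did with slide as a block. rno-miR-30a-3p and rno-miR-30e-3p had the direction of the mean of their 5p probes there, while rno-miR-30b-3p rose where the mean of the miR-30b-5p probes fell. For each of these 5p arms 1 probe had the sign opposite to the mean. These were the dimmer of miR-30a-5p (-0.04) and the brighter of miR-30e-5p (0.06) and miR-30b-5p (0.18). Between the sexes 3 of 6 passed (43.8% of all called), rno-miR-30e-3p higher in males (0.25) and rno-miR-30b-3p (-0.18) and rno-miR-30c-1-3p (-0.21) lower. When slide was a block 0 of 6 did, and the values were 0.17, 0.03 and -0.14, so rno-miR-30b-3p changed sign. The log2 ratio of 5p to 3p within an array was compared between each dose and control for 4 hairpins, and the ratio of 1 gene to its neighbour (miR-30d-5p over miR-30b-5p, miR-30e-5p over miR-30c-5p) in the same way, 18 exact two-sided permutation tests in all, of which 0 passed. The lowest p was for miR-30d, whose ratio of 5p to 3p was higher at 1500 ppm than in control by 0.15 ± 0.05 (exact permutation p 0.028, adjusted 0.506). These ratios also moved with the slide. That of miR-30b had a mean of 7.59 on slide 1, 6.85 on slide 2 and 7.04 on slide 3, without overlap between slides 1 and 2, whereas that of miR-30a was 4.10, 4.02 and 4.04.

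Marker lists of the cell types in lung were set beside the members. No marker passed at any dose. Without a slide term the epithelial list had 9 of 9 miRNAs above control at each dose (medians 0.13, 0.10 and 0.13 at 600, 1000 and 1500 ppm), and the 2 endothelial miRNAs tested had a median of 0.06, -0.07 and -0.22. The summed level of the 2 endothelial miRNAs was 12210 to 16316 in control, 13035 to 17342 at 600 ppm, 13005 to 14926 at 1000 ppm and 11889 to 15202 at 1500 ppm, and that of the 5 members was 15692 to 18009, 16839 to 19165, 15077 to 17268 and 14919 to 18830. Smooth muscle and fibroblast miRNAs had medians of 0.06, 0.08 and -0.04 (6 tested), leukocyte miRNAs -0.15, -0.07 and -0.10 (5 of 6 tested), erythroid miRNAs 0.29, 0.24 and 0.00 (3 of 4), striated muscle miRNAs 0.36, 0.99 and 0.32 (4 of 6), and miRNAs associated with TGF-beta and fibrosis 0.05, 0.05 and 0.13 (7 of 8). With slide as a block 6 of 9 epithelial miRNAs were above control at 1500 ppm with a median of 0.03, and the endothelial median turned to 0.02. The other medians at 1500 ppm were then 0.00 for smooth muscle and fibroblast, -0.10 for leukocyte, 0.14 for erythroid, 0.09 for striated muscle and 0.02 for fibrosis associated miRNAs. In males at 1500 ppm, where 36% of all miRNAs passed, the lists had 1 of 2 endothelial, 3 of 6 smooth muscle and fibroblast, 1 of 9 epithelial, 1 of 4 striated muscle, 1 of 3 erythroid, 1 of 5 leukocyte and 2 of 7 fibrosis associated miRNAs past the threshold, and 0 of each with slide as a block. Their part in the differences of miR-30a-5p and miR-30b-5p was not tested.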

How the data were processed

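Total RNA of 24 rat lungs was measured on single-colour miRNA arrays. Agilent Feature Extraction 11.5.1.1 wrote the scanner files that the authors deposited, 1 for each array, and their processed intensity is background-corrected Cy3 brightness that is not normalized between arrays per the file headers. The deposited series table of intensity values equalled the total gene signal of the scanner software, with 58.7% of values set to 1, and was used as an alternative. The procedure behind it is not given in the sources used here. The file header names build rn4, and the sequences and positions printed are from RefSeq GRCr8.

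Each array was scaled to a common 75th percentile (865 intensity units) over the 394 probes that were bright (well above background) on every array. Values were floored at 11.3 (8.59% of spots of kept probes) and log2 was taken. Spots of a probe and then probes of a miRNA were averaged. Probes well above background on at least 6 of 24 arrays were kept (555 probes, 283 miRNAs). The number of arrays limits the precision.

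Groups came from the labels. Tests were two-sided in limma 3.58.1 (R 4.3.3, data.table version 1.17.8), in 1 fit of all arrays per question with 4 dose means or 8 means of dose and sex, and Benjamini-Hochberg adjustment over 283 miRNAs at 0.05. Ratios were tested by exact permutation and correlations by permutation (100000 draws, exact within slides) in scipy 1.17.1, with numpy 2.4.6 and pandas 2.3.3. The code was tested on simulated data.

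The 5 members and the 3p arms are named in every comparison, with the 3 miRNAs outside the members of highest Pearson r for each member. The members and the lists (3p arms, epithelial, endothelial, smooth muscle and fibroblast, striated muscle, erythroid, leukocyte, TGF-beta and fibrosis associated) were chosen with earlier results of these data known. Alternatives changed the scaling, filter, background correction, probe summary, eBayes prior, sex and slide terms and left out each array. Slide as a block together with sex as a covariate, and correlations by the brighter probe, were added after seeing the data. The normexp correction used the median spot brightness, since the files analysed hold no mean column.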

Additional observations from a re-analysis of the deposited data

Results flagged for a closer look

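miR-30b-5p in 1500 ppm male 18 had a log2 level of 12.00, with the nearest of the other 5 rats of its group at 11.77, and this gap made up 0.700 of the group's range, above Dixon's 95% limit for 6 samples. The same male was also the highest of its group for miR-30a-5p, miR-30c-5p and miR-30d-5p, below that limit, and the group held males of slide 2 and females of slide 3. The miR-30b-5p value was the 1 past the limit among 20 groups of 6 tested, and chance alone gives about 1 in 20. The dose by sex interaction of miR-30a-5p (F = 6.43) and the difference between males and females in its 1500 ppm effect (0.25) also passed their tests. The control and 1500 ppm males lay on different slides, so slide and dose cannot be told apart in either value. The difference of 0.25 was 0.61 by the brighter probe alone and -0.10 by the dimmer.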

How the results depend on the processing

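No paired analysis was possible because the rat numbers differ between the groups. Of 2150 values of single members under the alternatives, 2049 kept their side of the threshold, 64 lost a call, 28 gained one and 9 changed sign where a call was involved, and 80 more changed sign without a call. None of the 940 dose values of members, sexes pooled, passed under any alternative (lowest limma adjusted p 0.189). The counts of members past the threshold changed as follows, from 2 between the sexes, 1 for the interaction, 2 for any dose in males and 2 at 1500 ppm in males. With slide as a block or a random block all 4 counts were 0. With normexp all 4 were 0. With no filter on dim probes the counts were 1 for sex, 1 for any dose in males and 1 at 1500 ppm in males. With the brightest probe they were 0 for sex, 2 for the interaction, 1 for any dose in males, 1 at 1500 ppm in males and 1 of the 5 between slides in males (3 in the report), and 8 correlations passed in place of 5. With the total gene signal they were 4 for sex, 0 for the interaction, 0 for any dose in males, 1 at 1500 ppm in males and 1 of 18 ratios (0 in the report), miR-30d at 1500 ppm with 0.32 (exact permutation p 0.002, adjusted 0.039). With the percentile over all probes the interaction count was 2, and with the series table the counts were 0 for sex and 5 at 1500 ppm in males. Leaving out 1 array gave 1 to 2 for sex, 0 to 1 for the interaction, 1 to 2 for any dose in males and 1 to 3 at 1500 ppm in males, where miR-30e-5p then passed.

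Values that changed sign were, with the brightest probe, the sex difference of miR-30b-5p (-0.069), its 1500 ppm difference in males (0.18) and the slide differences in males of miR-30b-5p (0.12) and miR-30e-5p (0.075). With slide as a block the 1500 ppm difference of miR-30b-5p in males was 0.12, where the slide term hung on male 13 at 1000 ppm. In the series table the 1500 ppm differences in males were -0.42 for miR-30a-5p and -0.57 for miR-30d-5p, and their slide differences -0.29 and -0.53. The cause was not tested. In the 1500 ppm comparison of males the median of all miRNAs moved by 0.14 with the percentile over all probes, 0.14 with normexp, -0.18 with the total gene signal and -0.70 with the series table. Relative to that median miR-30b-5p stayed below 0 under each of these. With the brightest probe the median moved by 0.07, and miR-30b-5p lay above it, at 0.07 relative to the median.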
